A study of Mus musculus with 54 samples.

Results

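Nuclear genes that encode proteins of the mitochondrial ribosome were followed in mouse naive CD4+ T cells before and during stimulation. The members were the genes whose symbol starts with Mrpl or Mrps and a digit, with symbols that carry a pseudogene ending left out and with a mean of at least 10 reads per library in both count tables. Of 55385 annotated genes, 78 had such a symbol and 77 were members, 48 of them named Mrpl (large subunit) and 29 named Mrps (small subunit). The missing gene, Mrpl53, had a mean of 2.39 reads per library in one table and 1.72 in the other. The member nearest above the threshold, Mrps36, had means of 35.5 and 21.8.

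Mitochondria hold their own ribosomes, which translate the few mRNAs of the mitochondrial genome into core subunits of the respiratory chain and the ATP synthase. All protein components of these ribosomes are encoded in the nucleus, made in the cytosol and imported, whereas the ribosomal RNAs come from mitochondrial DNA. Many of the proteins descend from bacterial ribosomal proteins, and others are found only in mitochondria. T cells that leave quiescence are known to build more mitochondria and to raise respiration while they grow.

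RNA-seq was done in a CD5/CD6 experiment and a LAT experiment, which are given separately because their counts came in separate tables. The cells came from mice on the C57BL/6 background, aged 8 to 10 weeks. In the CD5/CD6 experiment, 36 libraries covered WT, Cd5-/-, Cd6-/- and Cd5-/-Cd6-/- T cells, where the last genotype, the double knockout, is a single deletion on chromosome 19 that removes both neighbouring genes, and where naive CD4+ T cells were enriched with magnetic beads from pooled lymph nodes and spleens. In the LAT experiment, 18 libraries covered WT and Lat-/- T cells sorted by flow cytometry from Latfl-dtr maT-Cre mice, whose Cre recombinase is expressed in T cells. The sorted WT cells of that experiment were hDTR+, meaning that they still carried the floxed Lat allele with its human diphtheria toxin receptor cassette, and the Lat-/- cells were hDTR-. Every genotype was measured unstimulated (0 h) and after 4 h and 20 h on plate-bound anti-CD3 (3 µg/mL) with soluble anti-CD28 (1 µg/mL), with 3 libraries at each time. CD5 and CD6 are surface receptors of T cells that lie close to the T cell receptor, and LAT is the adaptor protein on which much of the signalling downstream of that receptor is assembled. The study describes the samples behind its own comparisons as independently prepared, and the labels do not say whether that meant separate mice or cultures, so p-values measure the spread between these preparations.

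Libraries held 20554354 to 45222554 counted reads (median 31680304) in the CD5/CD6 experiment and 17784644 to 28501095 (median 23430703) in the LAT experiment. Targeted genes were low in the knockouts, with Lat at 97.1 to 312.7 CPM in WT and 5.45 to 20.3 CPM in Lat-/- libraries. For the targeted genes Lat, Cd5 and Cd6, CPM is a gene's reads scaled to the total of counted reads in its library. For all other genes that total was first multiplied by the TMM normalization factor of the library. The 0 h library 2 labelled Cd5-/- went against its label, with Cd5 at 821.6 CPM and Cd6 at 375.2 CPM. The 0 h library 2 labelled Cd6-/- went against its label too, with Cd6 at 1350 CPM and Cd5 at 193.6 CPM. The other 17 libraries with Cd5 deleted held at most 142.1 CPM of Cd5, and the other 17 with Cd6 deleted held at most 367.6 CPM of Cd6. Apart from these 2 libraries, those with the gene intact held 667.3 to 1527 CPM of Cd5 and 624.4 to 1362 CPM of Cd6. Each of the 2 was thus closer to the label of the other, and whether they were exchanged was not tested. Both were kept under their labels, so the 0 h groups labelled Cd5-/- and Cd6-/- each hold 1 library that goes against its targeted gene, and each result on these groups was also computed without those 2 libraries. The naive CD4+ T cell markers Cd3e, Cd4, Trac, Ccr7, Lef1, Tcf7 and Il7r were abundant in every 0 h library, from 439.3 CPM upwards.

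Promoters of 68 of the 77 members were found in the RefSeq table for GRCm38.p6. Those of 7 members are shown up to the annotated start because each stands for a time course described further on. Mrps22, Mrpl20, Mrpl45 and Mrpl12 were among the members with the largest rise at 20 h, Mrpl17 had most of its rise at 4 h, and Mrpl34 and Mrpl58 fell at 4 h. Each line gives the 120 bases before the RefSeq start, 5′ to 3′ on the strand of the gene. Capitals mark the ETS motif CCGGAAG, the E-box CACGTG, the GC box GGGCGG and the NRF1 core GCATGCGC on either strand.
Mrps22, chr9:98601680-98601799, minus strand: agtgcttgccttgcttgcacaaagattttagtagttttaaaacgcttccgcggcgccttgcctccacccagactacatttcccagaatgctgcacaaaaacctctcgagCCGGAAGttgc
Mrpl20, chr4:155802758-155802877, plus strand: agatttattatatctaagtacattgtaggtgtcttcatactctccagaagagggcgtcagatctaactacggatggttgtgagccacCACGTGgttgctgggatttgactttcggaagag
Mrpl45, chr11:97315596-97315715, plus strand: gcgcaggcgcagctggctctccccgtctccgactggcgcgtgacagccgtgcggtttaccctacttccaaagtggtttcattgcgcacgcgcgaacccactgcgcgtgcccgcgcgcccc
Mrpl12, chr11:120484517-120484636, plus strand: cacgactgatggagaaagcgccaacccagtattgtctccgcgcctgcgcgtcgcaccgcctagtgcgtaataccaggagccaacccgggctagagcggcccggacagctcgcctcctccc
Mrpl17, chr7:105811088-105811207, minus strand: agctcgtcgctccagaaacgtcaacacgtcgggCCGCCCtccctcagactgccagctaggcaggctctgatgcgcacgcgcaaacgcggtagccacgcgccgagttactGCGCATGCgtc
Mrpl34, chr8:71464806-71464925, plus strand: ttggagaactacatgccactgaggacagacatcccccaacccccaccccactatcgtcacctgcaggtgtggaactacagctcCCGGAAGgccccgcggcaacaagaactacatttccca
Mrpl58, chr11:115403632-115403751, plus strand: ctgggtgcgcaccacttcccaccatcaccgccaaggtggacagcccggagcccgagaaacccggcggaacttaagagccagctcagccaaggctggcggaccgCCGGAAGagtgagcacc

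Among the 68 promoters, read over 300 bases from 250 before to 50 after the start, 25 (36.8%) held the ETS letters CCGGAAG, against 9.93% of 27025 genes in the table and 22.0% of the 8993 genes in it with a mean of at least 10 reads. The YY1 core ATGGCGGC was held by 11 (16.2%), against 2.6% and 6.09%. The NRF1 core GCATGCGC was held by 8 (11.8%), against 3.05% and 6.43%. The GC box GGGCGG was held by 34 (50.0%), against 38.2% and 69.5%. The E-box CACGTG, the letters that MYC and related factors bind, was held by 5 (7.35%: Mrpl2, Mrpl20, Mrpl36, Mrpl37 and Mrps18c), against 8.09% and 12.2%. So the ETS, YY1 and NRF1 letters were more frequent in member promoters than in those of other detected genes, and the E-box and GC box letters were less frequent. These are descriptions of letters in a window, with no test, and the motifs may overlap each other. The median 20 h log2 fold change in WT cells from the CD5/CD6 experiment was 1.30 for members with the ETS letters and 1.65 without, 1.22 and 1.59 for the NRF1 core, 1.54 and 1.55 for the YY1 core, and 1.46 and 1.62 for the GC box. It was 1.86 for the 5 with an E-box and 1.52 for the other 63.

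In WT cells from the CD5/CD6 experiment, the mRNAs of nearly all members took a larger share of reads after 20 h of stimulation than at 0 h. Unstimulated cells were measured at 0 h only in both experiments. The effects of stimulation and of time in culture therefore cannot be told apart in any comparison with 0 h. At 20 h 74 of the 77 members had risen and 1 had fallen (edgeR's quasi-likelihood test, Benjamini-Hochberg adjusted p under 0.05 over 32290 genes), against 16.9% of all tested genes called higher and 21.1% called lower. The median log2 fold change was 1.55 over members (range -1.68 to 2.81) and 0 over all tested genes. Of the 74, 66 rose by more than 2-fold, a size reached by 12.3% of tested genes. The summed share of reads taken by the members was between 0.265% and 0.965% across the 36 libraries.

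**Figure D1:**
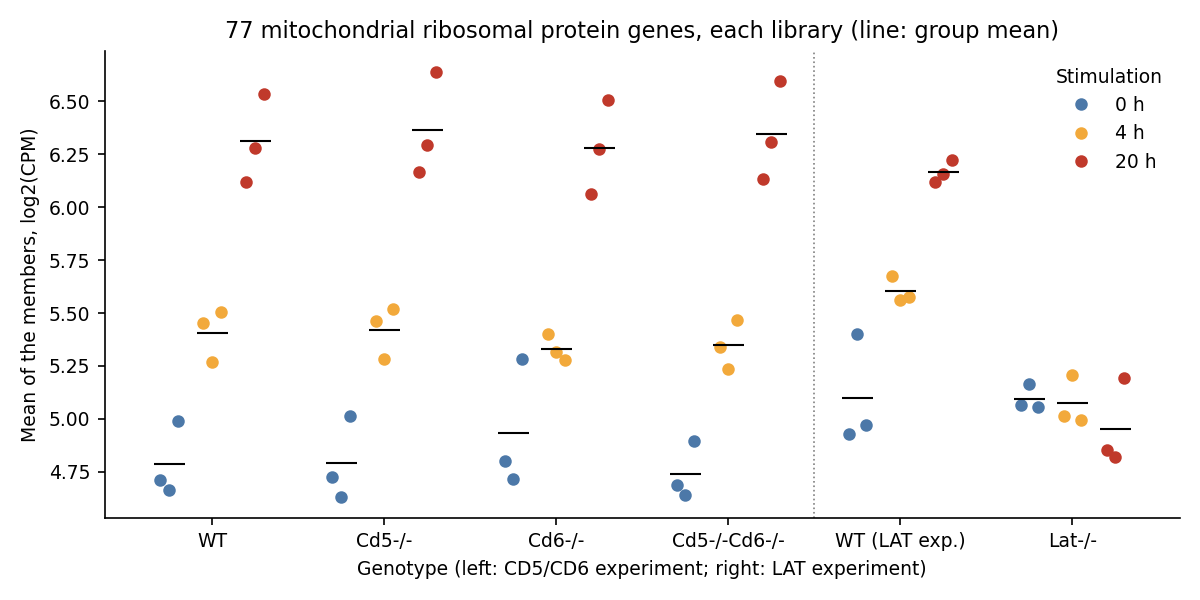
Mean log2 CPM of the 77 members in each library (y axis) by genotype and time (x axis), with 1 point per library and a bar at the mean of 3. The WT libraries of the CD5/CD6 experiment sit at 4.66 to 4.99 at 0 h and at 6.12 to 6.53 at 20 h, whereas Lat-/- libraries sit at 4.82 to 5.19 at 20 h.

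All roles took part. Of the 30 large-subunit members with a bacterial homolog, 28 rose and 1 fell at 20 h (median log2 1.79). Of the 20 large-subunit members specific to mitochondria, 19 rose (median 1.45). All 16 small-subunit members with a bacterial homolog rose (median 1.38), as did all 10 small-subunit members specific to mitochondria (median 1.58). Mrps36, which carries a small-subunit name but whose protein belongs to the 2-oxoglutarate dehydrogenase complex, rose by 2.04 ± 0.40 (SE, adjusted p = 1.61e-05), from 0.466, 0.542 and 0.509 CPM at 0 h to 1.78, 2.21 and 2.28 CPM at 20 h.

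Mrps6, a small-subunit protein with a bacterial homolog (chromosome 16, 92058270 to 92112227, GRCm38), had the largest change. Its level in the 3 WT libraries was 17.1, 17.2 and 24.1 CPM at 0 h, 173.6, 146 and 173.7 CPM at 4 h, and 114.1, 134.6 and 162 CPM at 20 h. All stimulated libraries lay above all unstimulated ones, and the gene had reached its height by 4 h. The log2 fold change was 3.08 ± 0.20 at 4 h and 2.81 ± 0.20 at 20 h. Of its exon bases, 19.9% are shared on the same strand with Slc5a3 and Gm49711, so its reads may include some of theirs.

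Mrps22, a small-subunit protein found only in mitochondria (chromosome 9, 98588730 to 98601660), climbed in steps. It was at 15.8, 15.1 and 21.7 CPM at 0 h, 42, 36.8 and 42.1 CPM at 4 h, and 96.9, 119.4 and 131.4 CPM at 20 h. The 3 times did not overlap, and the log2 fold change at 20 h was 2.72 ± 0.19.

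Mrpl12, a protein of the large-subunit stalk (chromosome 11, 120484613 to 120489065), was the most abundant member per length after stimulation. It was at 60.1, 54.5 and 80.7 CPM at 0 h, 179.9, 171.7 and 186.1 CPM at 4 h, and 307.9, 381 and 436.9 CPM at 20 h, with a log2 fold change of 2.53 ± 0.18 at 20 h. Mrpl20, a large-subunit protein with a bacterial homolog (chromosome 4, 155802878 to 155809975), went from 48.4, 44.3 and 57.3 CPM to 131.6, 116.3 and 140.9 CPM and then to 206.4, 237.9 and 313.8 CPM (log2 2.34 ± 0.20 at 20 h). Both genes therefore rose at 4 h and rose again by 20 h. Mrpl45, a mitochondria-specific protein near the exit tunnel of the large subunit (chromosome 11, 97315716 to 97329920), rose mostly late, from 37.9, 32.8 and 43.1 CPM at 0 h and 60.3, 47.7 and 58 CPM at 4 h to 176.4, 191.7 and 195.2 CPM at 20 h (log2 2.31 ± 0.17).

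**Figure D2:**
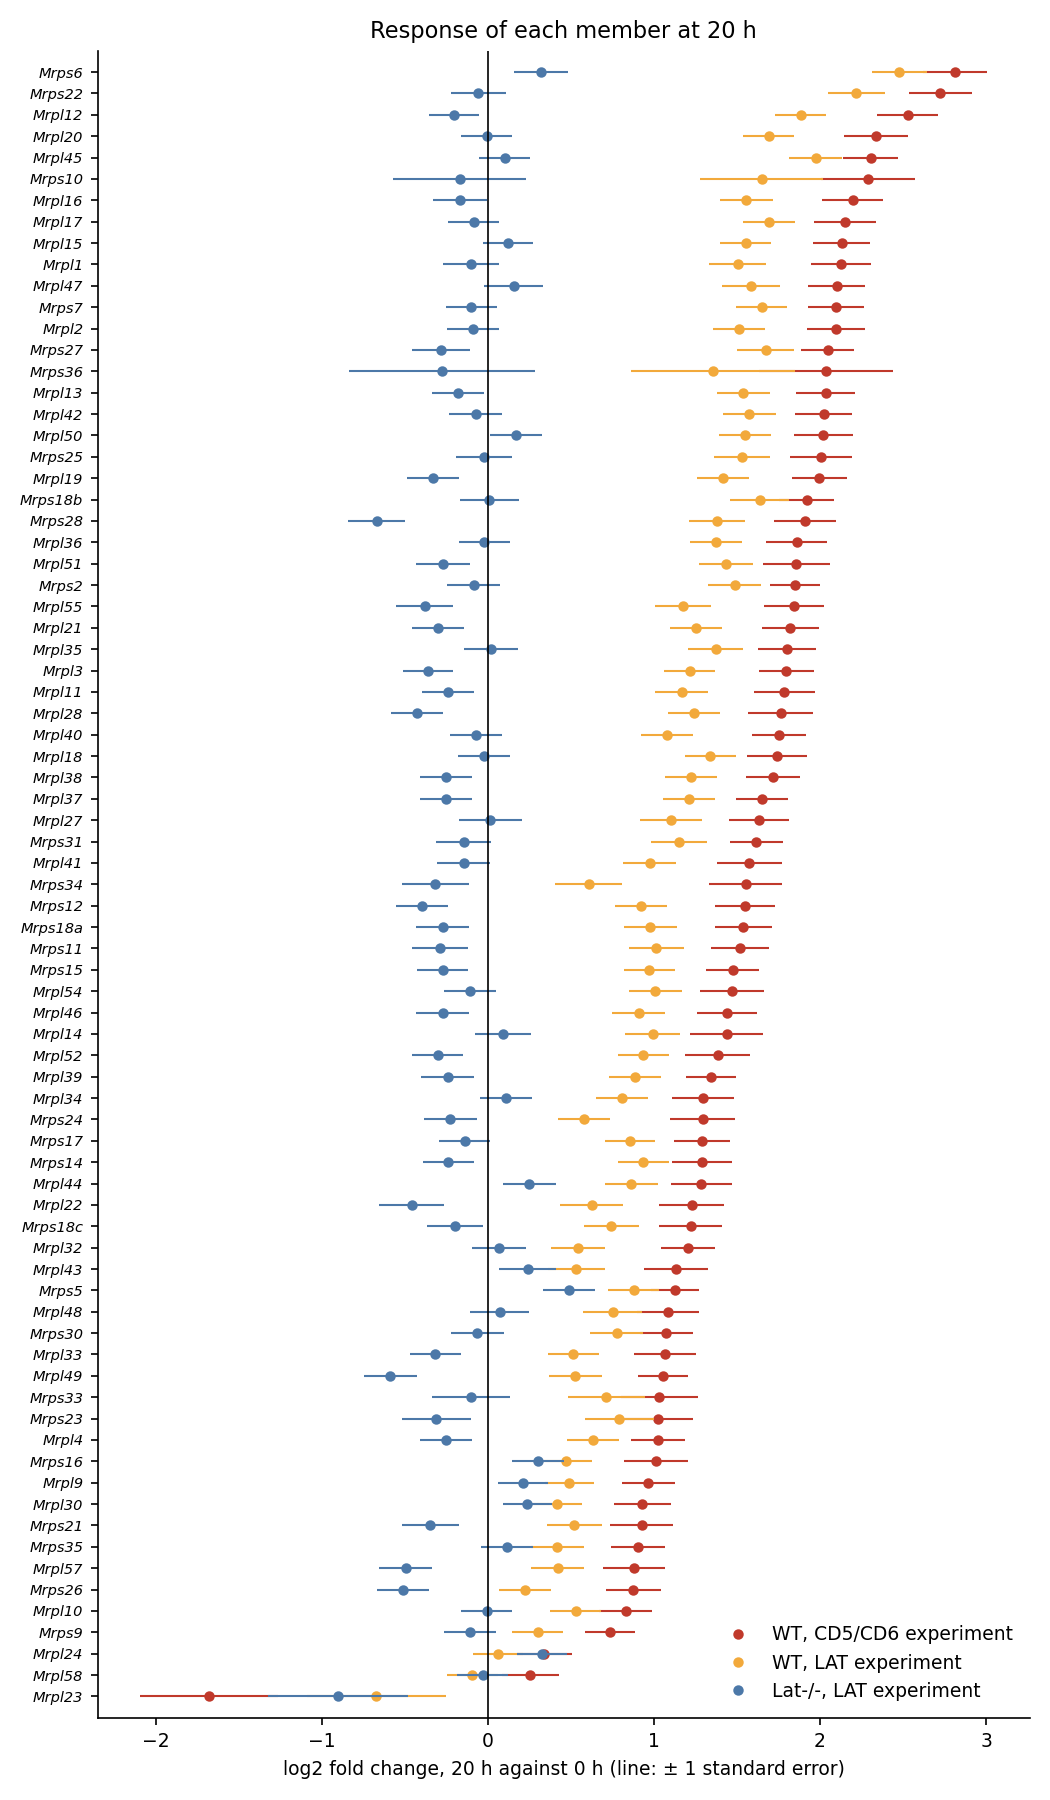
Log2 fold change from 0 h to 20 h (x axis) of each of the 77 members (y axis, ordered by the first of the groups) in WT cells from the CD5/CD6 experiment (red), WT cells of the LAT experiment (orange) and Lat-/- cells (blue), with lines of 1 SE to each side. Red points run from -1.68 for Mrpl23 to 2.81 for Mrps6, and blue points lie around zero with a median of -0.14.

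Only 3 of the 77 members were not called higher at 20 h in this comparison. Mrpl23, a large-subunit protein at the exit tunnel (chromosome 7, 142532686 to 142540747), was counted with 63, 165 and 70 reads in the WT libraries at 0 h, 121, 204 and 94 at 4 h, and 29, 20 and 31 at 20 h. Its log2 fold change at 20 h was -1.68 ± 0.42 (adjusted p = 0.00052), and without the libraries numbered 2 it was -0.98 (adjusted p = 0.101). The pseudogene Mrpl23-ps1 is annotated too, with a mean of 10.8 reads, and how reads that match both were counted is not given in the sources used here. Mrpl58, a large-subunit protein that can release peptides from stalled ribosomes (chromosome 11, 115403752 to 115412674), was at 51.4, 53.6 and 67.2 CPM at 0 h and 59.1, 67.2 and 79.3 CPM at 20 h, which overlap (log2 0.26, adjusted p = 0.28). Mrpl24, a large-subunit protein with a bacterial homolog (chromosome 3, 87919506 to 87923672), was at 70.4, 65.9 and 81.1 CPM at 0 h and 79.1, 87.7 and 108.5 CPM at 20 h (log2 0.34, adjusted p = 0.1).

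At 4 h the members were split. Of the 77, 47 had risen and 3 had fallen, against 13.3% and 15.2% of all tested genes, and 19 had risen by more than 2-fold (8.24% of tested genes). The median log2 fold change was 0.63 (range -0.99 to 3.08). Scaling to library totals without TMM factors gave 35 higher and 10 lower, so that the share of called members that rose went from 94.0% to 77.8%. Library numbers ran together across these times, and with the replicate number as a block 53 rose and 7 fell. Between 4 h and 20 h, 63 members rose and 1 fell (13.8% and 16.7% of tested genes), 33 of the former by more than 2-fold (8.74% of tested genes).

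Taking the 3 comparisons together, 35 members rose by 4 h and again by 20 h. They were Mrpl1, Mrpl2, Mrpl3, Mrpl9, Mrpl11, Mrpl12, Mrpl15, Mrpl16, Mrpl19, Mrpl20, Mrpl21, Mrpl35, Mrpl36, Mrpl37, Mrpl38, Mrpl39, Mrpl41, Mrpl44, Mrpl45, Mrpl46, Mrpl47, Mrpl51, Mrpl54, Mrpl55, Mrps5, Mrps7, Mrps10, Mrps12, Mrps15, Mrps18a, Mrps22, Mrps25, Mrps27, Mrps28 and Mrps31. A further 25 were not called at 4 h and rose by 20 h: Mrpl4, Mrpl10, Mrpl13, Mrpl14, Mrpl18, Mrpl22, Mrpl27, Mrpl28, Mrpl30, Mrpl40, Mrpl42, Mrpl48, Mrpl49, Mrpl52, Mrps9, Mrps11, Mrps14, Mrps16, Mrps18c, Mrps21, Mrps23, Mrps24, Mrps26, Mrps33 and Mrps34. In 12 members the rise was called at both times with no call between 4 h and 20 h: Mrpl17, Mrpl32, Mrpl33, Mrpl43, Mrpl50, Mrpl57, Mrps2, Mrps6, Mrps17, Mrps18b, Mrps30 and Mrps36. Large and small subunit genes and both origins were present in each of these sets.

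Among those with an early rise, Mrpl17, a large-subunit protein with a bacterial homolog, went from 29.9, 28.7 and 42.1 CPM to 122.2, 113.3 and 128.5 CPM at 4 h and 133, 138.3 and 176.1 CPM at 20 h (log2 1.85 at 4 h and 2.15 at 20 h). Mrpl50, a mitochondria-specific large-subunit protein, went from 31.3, 31.7 and 42 CPM to 117.4, 106 and 118 CPM at 4 h and 119.1, 142.7 and 164.4 CPM at 20 h (log2 1.70 and 2.02). In both genes most of the rise was present at 4 h.

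The smallest rises at 20 h were in Mrps9 and Mrpl10, which both have bacterial homologs. Mrps9 was at 53, 51.5 and 52.6 CPM at 0 h and 77.7, 87.5 and 96.3 CPM at 20 h (log2 0.74 ± 0.15). Mrpl10, a protein of the stalk base, was at 50.5, 48.3 and 63 CPM at 0 h and 89.4, 89.5 and 108.6 CPM at 20 h (log2 0.83). Even here the 0 h and 20 h libraries did not overlap.

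The 3 members that fell at 4 h were Mrpl34, Mrpl58 and Mrps35. Mrpl34, a small large-subunit protein with a bacterial homolog (chromosome 8, 71464959 to 71465747), went from 35.2, 29.8 and 40.6 CPM at 0 h down to 16.1, 16.2 and 20.8 CPM at 4 h and up to 75.5, 83.3 and 100.7 CPM at 20 h. Its log2 fold change was -0.99 ± 0.19 at 4 h (adjusted p = 8.6e-06) and 1.30 at 20 h. Mrpl58 went to 28.4, 25 and 34 CPM at 4 h, below every 0 h library (log2 -0.98 ± 0.17, adjusted p = 2.9e-06). Mrps35, a mitochondria-specific small-subunit protein, was at 42.1, 40.8 and 42.1 CPM at 0 h, 28.7, 27.7 and 30.7 CPM at 4 h, and 68, 74.2 and 91.6 CPM at 20 h. Mrpl34 and Mrps35 thus passed from below to above their unstimulated level, and Mrpl58 came back to the range it started from.

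**Figure D3:**
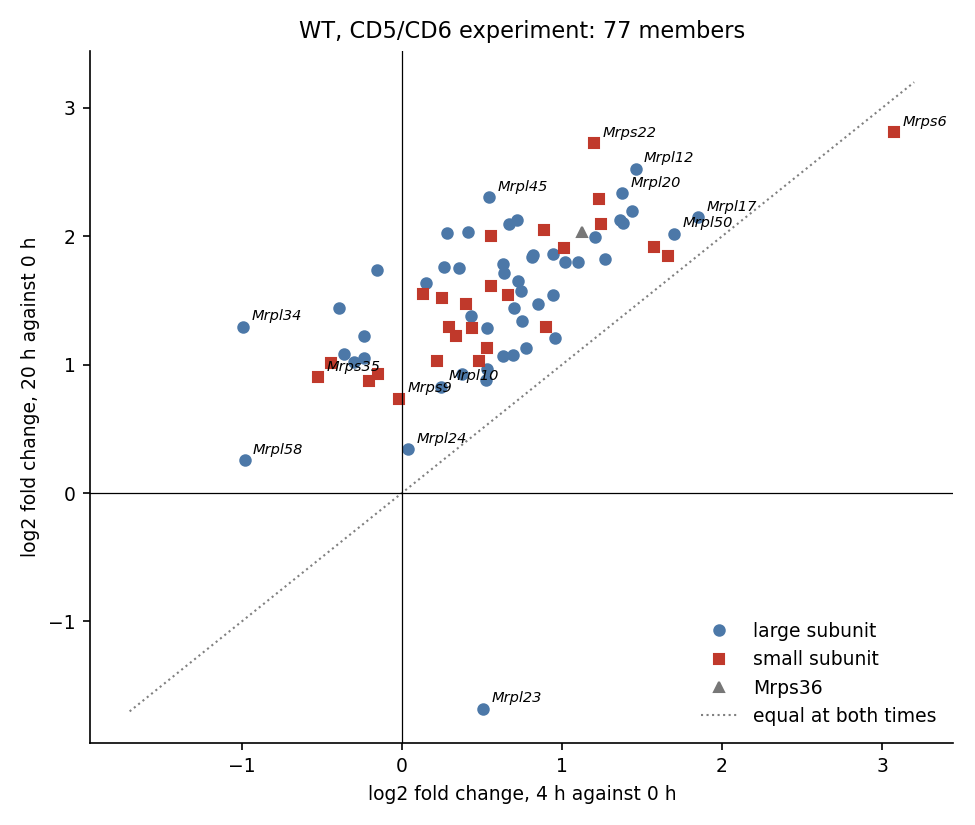
Log2 fold change of each member at 4 h (x axis) against that at 20 h (y axis) in WT cells from the CD5/CD6 experiment, with colours for the large and small subunit and a dotted line where both times are equal. Mrps6 lies farthest right, and Mrpl34 and Mrps35 lie left of zero at 4 h and above zero at 20 h.

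The 3 genes of the Mrps18 family encode related proteins that sit in different places of the ribosome, the Mrps18a protein in the large subunit and the other 2 in the small subunit. In WT cells, Mrps18a went from 9.23 ± 1.30 RPKM (CPM per kilobase of exon, SD, n = 3) to 26.8 ± 4.23 RPKM at 20 h (log2 fold change 1.54 ± 0.17 SE). Mrps18b went from 6.08 ± 0.506 to 23 ± 3.09 RPKM (log2 1.92 ± 0.17), with 1.58 already present at 4 h. Mrps18c went from 18.9 ± 2.37 to 44.2 ± 8.19 RPKM (log2 1.22 ± 0.19), with a 4 h value of 0.34 that was not called (adjusted p = 0.195). Mrps18c shares 23.2% of its exon bases with Gm43511 on the same strand.

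Per length, the members spanned a wide range in unstimulated WT cells, from Mrps10 at 0.162 RPKM to Mrpl34 at 58 RPKM, with a median of 12.8 RPKM. Lengths are the summed exons of all annotated transcripts of a gene, so a long rare exon lowers the value of a gene such as Mrps10 or Mrps36. At 20 h the median was 36.1 RPKM, with Mrpl12 highest at 245 ± 42.2 RPKM and Mrpl23 lowest at 0.187 ± 0.0483 RPKM. Members above 100 RPKM numbered 0 at 0 h and 10 at 20 h. Mrpl34 stood first at 0 h with 58 ± 8.91 RPKM, followed by Mrpl52 with 47.3 ± 6.08, Mrpl12 with 42.5 ± 8.99 and Mrpl54 with 41.2 ± 4.17, and neighbours in this order overlapped within 1 SD. At 20 h Mrpl12 was followed by Mrpl20 (152 ± 33.2 RPKM), Mrpl34 (142.5 ± 21.3) and Mrpl36 (137 ± 25.1), and the last 3 overlapped within 1 SD whereas Mrpl12 stood above them.

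WT cells of the LAT experiment, sorted by flow cytometry and fitted on their own, were read in the same way. At 20 h 72 members had risen and 0 had fallen (16.5% and 18.2% of 27780 tested genes), 39 of them by more than 2-fold (10.8%), with a median of 1.01. At an unadjusted p under 0.05 the count of fallen members was 0 too, and DESeq2 called 0. At 4 h 46 had risen and 4 had fallen (14.2% and 14.8%), 14 by more than 2-fold (8.05%), with a median of 0.51. From 4 h to 20 h 49 rose and 0 fell (13.4% and 16.1%), 13 by more than 2-fold (7.9%), with 1 lower at an unadjusted p under 0.05 and 0 by DESeq2. Without the libraries numbered 1, the 4 h count of risen members was 19, and with library totals alone it was 24 with 10 fallen, a change from 92.0% to 70.6% in the share of called members that rose.

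Across the 77 members the fold changes of the 2 WT groups, which share no library, had Pearson's r = 0.98 at 4 h and 0.95 at 20 h, over genes that are not independent replicates. The sign was shared by 77 at 4 h and by 76 at 20 h. The change was larger in the CD5/CD6 experiment for 63 members at 4 h and for 76 at 20 h. Called higher in both experiments were 42 members at 4 h and 72 at 20 h, and called lower in both at 4 h were the 3 that fell in the CD5/CD6 experiment. Mrpl4, a large-subunit protein with a bacterial homolog, fell at 4 h in the LAT experiment as well, from 54.2, 71.4 and 50 CPM to 36.9, 36.5 and 37.6 CPM, before it rose to 86.8, 97.4 and 88 CPM at 20 h. The 2 experiments differed in how the cells were isolated, in the mice and in the table, and these cannot be told apart.

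Markers of other cells moved with the time of stimulation in both experiments. Summed over 8 B cell markers, 0 h libraries of the CD5/CD6 experiment held 77.3 to 650.1 CPM and 20 h libraries 1.39 to 6.32 CPM. Its 6 erythroid and platelet markers summed to 222.7 to 3742 CPM at 0 h and 1.93 to 61.6 CPM at 20 h. Its 8 myeloid markers summed to 451.6 to 1144 CPM at 0 h and 125.8 to 203.1 CPM at 20 h, with 7 of 8 lower at 20 h in WT cells (median log2 -6.77). The 6 markers of CD8+ T cells and NK cells summed to 69.5 to 145.4 CPM and 27.2 to 53.9 CPM, with 5 of 6 lower in WT cells (median -3.43). All 4 lists were thus lower at 20 h in that experiment. In the LAT experiment the B cell markers summed to 0.579 to 4.87 CPM in all 18 libraries, and the erythroid and platelet markers summed to at most 2.6 CPM. The myeloid markers of its WT libraries summed to 381.2 to 553.8 CPM at 0 h and 181.9 to 184.9 CPM at 20 h, with 5 of 8 lower (median -2.58). The CD8+ T cell and NK cell markers summed to 55.1 to 62.5 CPM and 21.9 to 24.6 CPM, with 4 of 6 lower and 1 higher (median -2.93). Cst3 and Ctss made up most of the myeloid sum in the LAT experiment, and Cd14 was at 0 in each of its 0 h and 20 h libraries. The part of these cells in the members' change was not tested. Fewer cells of a type and less RNA per cell cannot be told apart in bulk samples. All values are relative to the reads of a library, not amounts per cell.

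Genes that work with the mitochondrial ribosome were read from lists of their own. The 5 ribosomal proteins under other names all rose at 20 h in WT cells from the CD5/CD6 experiment (median log2 1.62): Dap3 by 0.69, Chchd1 by 1.62, Aurkaip1 by 1.12, Ptcd3 by 1.71 and Gadd45gip1 by 1.66. Of 24 genes for ribosome assembly and rRNA modification, 19 rose and 1 fell (median 0.89), from Fastkd2 at 2.35 and Mrm3 at 2.11 to Rpusd4 at -0.22 and Mrm1, which fell by 0.43. Of 15 translation factors, 14 rose and 0 fell (median 1.01), with the elongation factor gene Tsfm at 2.16 and the RNA-binding protein gene Slirp at 2.13 highest, Oxa1l lower at 0.36 and the initiation factor gene Mtif3 not called at -0.30. Of 17 mitochondrial tRNA synthetases, 11 rose and 1 fell (median 0.96), with Yars2 at 2.06, Vars2 at -0.03 and Ears2, which fell by 0.78. Of 9 genes for transcription and replication of mitochondrial DNA, 5 rose and 0 fell (median 0.65), with the elongation factor Tefm at 1.72 and the single-strand binding protein Ssbp1 at 1.58 highest and the polymerase genes Polg at -0.23 and Polg2 at -0.27 lowest. In WT cells of the LAT experiment the counts at 20 h were 5 risen of 5, 12 risen and 2 fallen of 24, 9 and 1 of 15, 10 and 1 of 17, and 5 and 0 of 9. Members thus had a higher median at 20 h than each of these lists in the CD5/CD6 experiment, except the ribosomal proteins under other names. In the LAT experiment the median was 1.01 for members and 0.92 for the ribosomal proteins under other names, followed by 0.84 for translation factors.

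The 82 cytosolic ribosomal protein genes were read for comparison. At 20 h their median log2 fold change was 0.06 in WT cells from the CD5/CD6 experiment, with 19 risen and 15 fallen, and -0.36 in WT cells of the LAT experiment, with 6 risen and 38 fallen. The mRNAs encoded by the mitochondrial genome were read as well. Of the 13, 9 had any read in the CD5/CD6 experiment, 0 were called at 4 h and 7 had fallen at 20 h, from mt-Nd1 (by 0.88) to mt-Cytb (by 2.22), with 0 risen. Their summed level in WT libraries was 17570 to 22000 CPM at 0 h, 19610 to 24310 CPM at 4 h and 4315 to 8597 CPM at 20 h. The large rRNA mt-Rnr2 fell by 0.72 and the small rRNA mt-Rnr1 rose by 0.61. The libraries were made from poly(A)-selected RNA, and mt-Co2, mt-Co3, mt-Atp8 and mt-Nd4l were listed at 0 in every library.

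Among 9 regulators known to act on nuclear genes for mitochondria, Myc, a transcription factor of cell growth, had the largest rise in WT cells. Myc was at 123.1, 142.9 and 125.4 CPM at 0 h, 1121, 1425 and 1084 CPM at 4 h, and 596.3, 650 and 550.1 CPM at 20 h (log2 3.21 and 2.20). Gabpb1, a subunit of the ETS-family factor GABP, rose by 1.76 at 4 h and by 0.69 at 20 h, and its partner Gabpa rose by 0.85 and 0.39. Pprc1, a coactivator, rose by 1.68 and 0.84. All 4 fell from 4 h to 20 h, by 1.02 on the log2 scale for Myc, 1.07 for Gabpb1, 0.46 for Gabpa and 0.84 for Pprc1, whereas the members had the larger median at 20 h. Nrf1 fell by 0.38 at 20 h (adjusted p = 0.022), and Yy1 was at -0.38 (adjusted p = 0.0543). The lowest estimates were those of Ppargc1a at -3.46 and Ppargc1b at -0.51, neither of which passed the test.

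**Figure D4:**
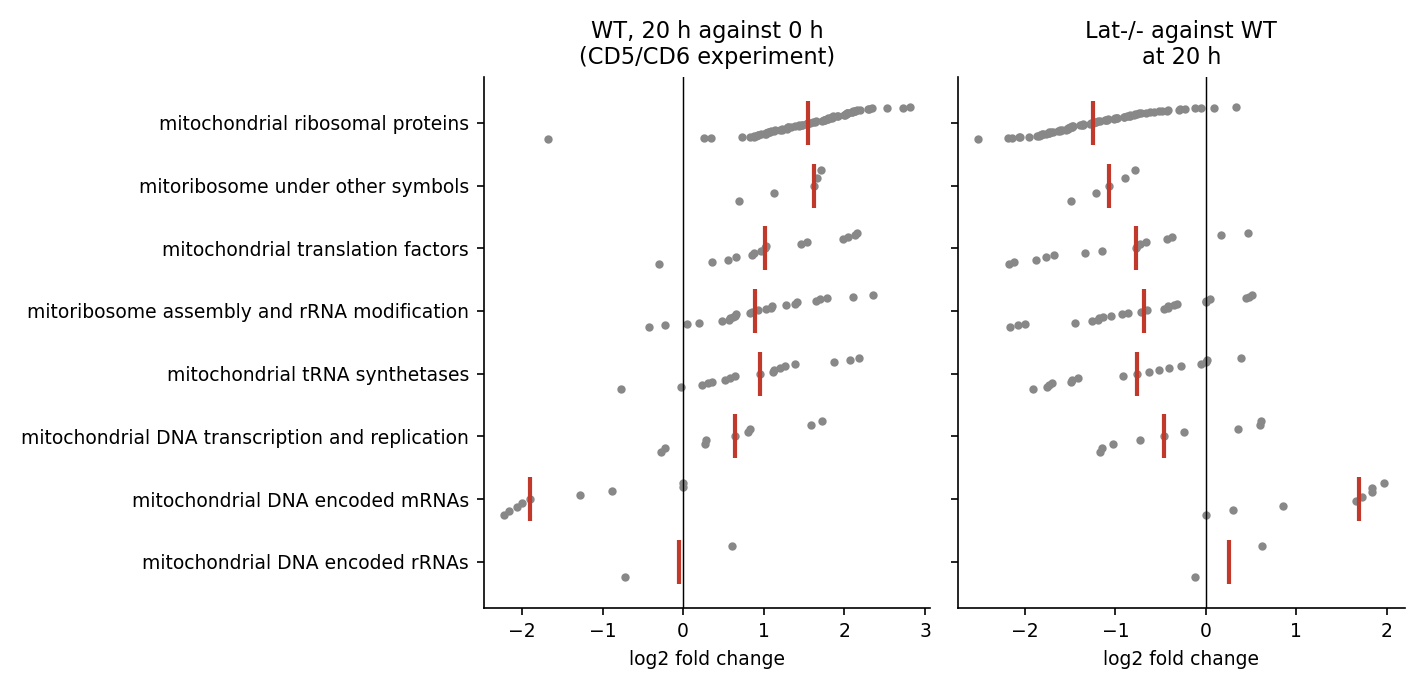
Log2 fold change (x axis) of each gene (grey points) and the median (red bar) for the members and 7 other gene lists (y axis), with WT cells from the CD5/CD6 experiment at 20 h against 0 h on the left and Lat-/- against WT cells at 20 h on the right. Medians of the members sit at 1.55 and -1.25 and those of the mRNAs of the mitochondrial genome at -1.90 and 1.69, where points at exactly 0 are genes without reads in the groups compared.

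The response in cells without LAT was then read beside that of WT cells. At 0 h 0 of 77 members were called higher and 0 lower in Lat-/- against WT cells (0.41% and 1.18% of tested genes), with 2 at an unadjusted p under 0.05 and 0 calls by DESeq2. Estimates ran from -0.46 (Mrpl27) to 0.34 (Mrps23), and for 76 of 77 the 95% interval of the difference lay within a 2-fold change. After 20 h 70 members were lower and 0 higher in Lat-/- than in WT cells (17.6% of tested genes in each direction), 50 of them by more than 2-fold (12.3%), with a median log2 difference of -1.25. For the 0 higher members, 1 was higher at an unadjusted p under 0.05 and DESeq2 called 0. At 4 h 44 were lower and 3 higher (12% and 11.9%), 11 lower by more than 2-fold (6.23%), with a median of -0.55. Without the libraries numbered 1, the 4 h count of lower members was 24.

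**Figure D5:**
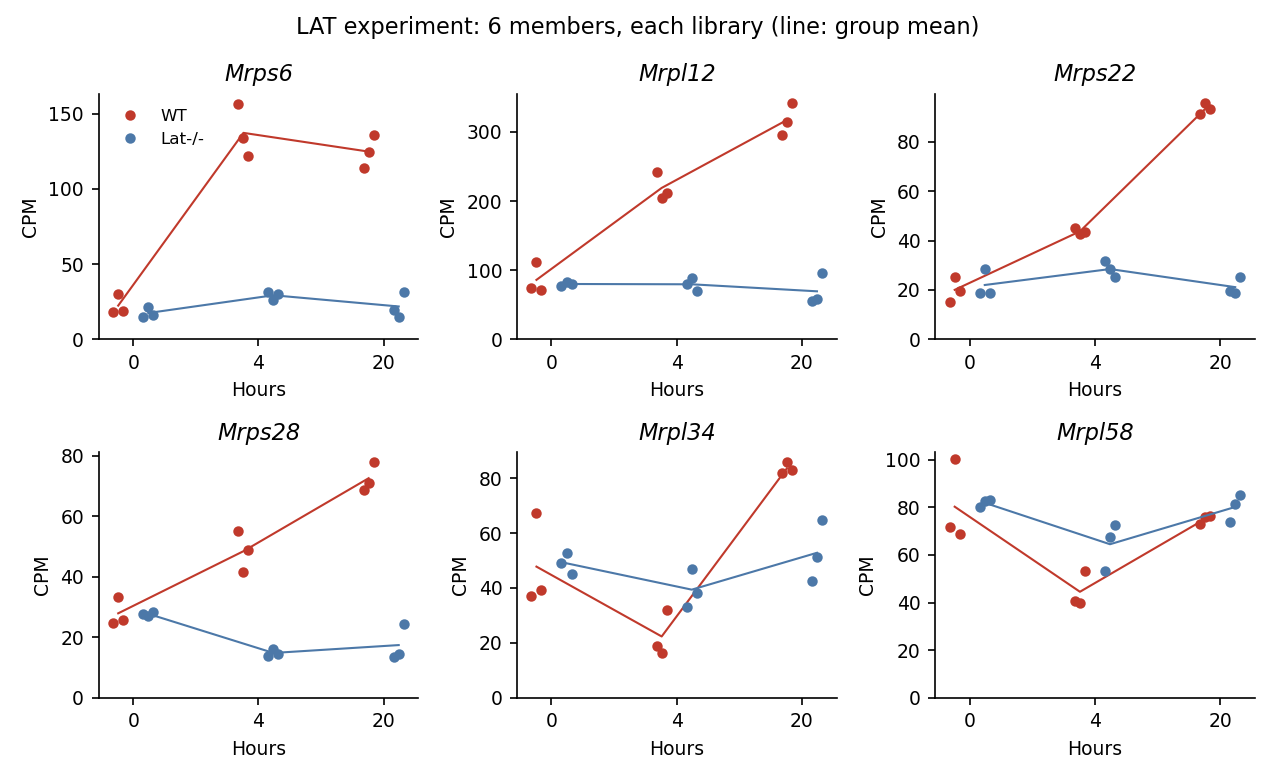
CPM (y axis) by time in hours (x axis) in WT and Lat-/- libraries of the LAT experiment for Mrps6, Mrpl12, Mrps22, Mrps28, Mrpl34 and Mrpl58, with 1 point per library and lines through the group means. The genotypes are apart at 4 h and 20 h for Mrps6 and Mrpl12, and for Mrpl58 both lie between 73.1 and 85.3 CPM at 20 h.

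Few members were called within Lat-/- cells. From 0 h to 20 h in Lat-/- cells, 1 member rose and 4 fell (5.35% and 5.34% of tested genes), and at 4 h 4 rose and 3 fell (7.38% and 8.05%), all of them by less than 2-fold. The median log2 fold change was -0.14 at 20 h and -0.01 at 4 h. Without the libraries numbered 1 there were 0 calls in either direction at 20 h, and without those numbered 3 there were 10 fallen members. The members that rose at 4 h were Mrps6 (0.74), Mrpl43 (0.53), Mrpl14 (0.47) and Mrpl50 (0.44), and those that fell were Mrps28, Mrps26 and Mrpl49. None of the 4 rises was called without the libraries numbered 1 (adjusted p from 0.0882 to 0.568), and the fall of Mrpl49 was not either (adjusted p = 0.123). With library totals alone 1 member had risen at 4 h, Mrps6, and 6 had fallen, and in a fit of only these groups 7 had risen and 8 had fallen. At 20 h Mrps5 rose by 0.49 and Mrps28, Mrpl49, Mrps26 and Mrpl57 fell.

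The difference between the responses was tested itself. At 20 h the response of 63 members was lower in Lat-/- than in WT cells and that of 0 was higher (12.8% and 13.5% of tested genes), 49 of them by more than 2-fold (9.35%), with a median difference of -1.25. At an unadjusted p under 0.05 the count of higher members was 0, and DESeq2 called 0. At 4 h 28 were lower and 2 higher (7.58% and 7.42%), 10 lower by more than 2-fold (4.34%). Without the libraries numbered 1 the 4 h count of lower members was 9.

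Mrps6 had the widest gap between the genotypes at 20 h, whereas the largest difference of 20 h responses was that of Mrps22 (-2.28, with Mrps6 at -2.16). In WT cells of the LAT experiment it was at 18.4, 29.9 and 19 CPM at 0 h, 156.4, 133.8 and 121.7 CPM at 4 h, and 113.9, 124.4 and 136.2 CPM at 20 h. In Lat-/- cells it was at 15, 21.4 and 16.1 CPM, then 31.6, 26.1 and 30.3 CPM, then 19.4, 14.9 and 31.3 CPM. The genotypes overlapped at 0 h and were apart at 4 h and 20 h, and the log2 difference at 20 h was -2.52 ± 0.16 (adjusted p = 3.98e-51). Mrpl12 was at 295.8, 314.6 and 341.3 CPM in WT and 54.8, 58.2 and 95.4 CPM in Lat-/- cells at 20 h (log2 -2.19), after 74.4, 112.4 and 71.3 CPM and 77.2, 82.3 and 80.7 CPM at 0 h. Mrps22 was at 91.1, 95.6 and 93.4 CPM in WT and 19.6, 18.7 and 25.2 CPM in Lat-/- cells at 20 h (log2 -2.14).

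Mrps28, a small-subunit protein with a bacterial homolog, went in opposite directions. In WT cells it rose from 24.7, 33.2 and 25.7 CPM at 0 h to 68.6, 71 and 77.9 CPM at 20 h. In Lat-/- cells it fell from 27.8, 27 and 28.3 CPM at 0 h to 14, 16.1 and 14.4 CPM at 4 h (adjusted p = 3.03e-06) and was at 13.4, 14.5 and 24.4 CPM at 20 h (adjusted p = 0.00148). The log2 difference between the genotypes was -1.71 at 4 h and -2.06 at 20 h. Mrpl49, a mitochondria-specific large-subunit protein, fell in Lat-/- cells from 49.8, 49.2 and 53.9 CPM to 25.7, 34.3 and 35.5 CPM at 4 h and 35.5, 30.5 and 35.8 CPM at 20 h, and rose by 0.53 in WT cells at 20 h. Mrps26, a mitochondria-specific small-subunit protein, fell in Lat-/- cells from 65.9, 57.8 and 74.2 CPM to 34.8, 40.9 and 33.7 CPM at 4 h and 39.4, 41.3 and 58.1 CPM at 20 h. Mrpl57, a mitochondria-specific large-subunit protein, fell in Lat-/- cells from 46.1, 42.6 and 45.8 CPM at 0 h to 27.7, 31.7 and 36 CPM at 20 h, and rose in WT cells from 42.7, 45.1 and 42.3 CPM to 58.8, 56 and 59.3 CPM. Of the 4 members that fell in Lat-/- cells at 20 h, Mrps28 and Mrpl57 thus ended below every WT library of that time. A level lower than in WT cells at 20 h was called for 70 members. The share of members that fell within Lat-/- cells was near that of all tested genes, given above.

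The 2 members with a higher 4 h response in Lat-/- than in WT cells were Mrpl34 and Mrpl14. Mrpl34 fell in WT cells from 37.1, 67.1 and 39.1 CPM at 0 h to 18.7, 16.2 and 32.1 CPM at 4 h, and in Lat-/- cells it was at 49.1, 52.6 and 45.3 CPM at 0 h and 33, 46.8 and 38.3 CPM at 4 h (difference 0.78, adjusted p = 0.00588). Mrpl14, a large-subunit protein with a bacterial homolog, was at 25.1, 34.7 and 24.8 CPM at 0 h and 24.7, 20.8 and 28.6 CPM at 4 h in WT cells, and rose in Lat-/- cells from 30.7, 29.9 and 27.2 CPM to 41.7, 45 and 34.8 CPM (difference 0.66, adjusted p = 0.0376). These calls did not hold in every fit. Mrpl34 missed the threshold with DESeq2 (adjusted p = 0.058) and with filterByExpr (adjusted p = 0.089), and Mrpl14 did in a fit of only the groups compared (adjusted p = 0.053) and without the libraries numbered 1 (adjusted p = 0.148). Without the libraries numbered 2, the differences were 0.20 and 0.33 and 0 members had a higher response. Both genes were lower in Lat-/- than in WT cells at 20 h, by 0.66 and 0.85 on the log2 scale.

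All roles were lower at 20 h in Lat-/- cells: 26 of 30 large-subunit members with a bacterial homolog (median log2 difference -1.47), 19 of 20 specific to mitochondria (-1.20), 15 of 16 small-subunit members with a bacterial homolog (-1.22), 9 of 10 specific to mitochondria (-0.97), and Mrps36 (-2.07). The 7 members with no call at 20 h were Mrpl9, Mrpl23, Mrpl24, Mrpl30, Mrpl58, Mrps16 and Mrps35. Mrpl24, a large-subunit protein with a bacterial homolog, was at 88.9, 92.2 and 91.7 CPM in WT and 117.9, 106.5 and 119.4 CPM in Lat-/- cells (log2 0.33, adjusted p = 0.074). Mrpl58 was at 0.09 (adjusted p = 0.74), and the estimates of the other 5 were negative, from -0.05 for Mrpl23 to -0.30 for Mrps35.

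The other lists were read in the same comparison. At 20 h the 5 ribosomal proteins under other names were all lower in Lat-/- than in WT cells (median -1.07), as were 11 of 15 translation factors (1 higher, median -0.77), 16 of 24 assembly genes (3 higher, median -0.69), 12 of 17 tRNA synthetases (0 higher, median -0.76) and 5 of 9 genes for mitochondrial DNA transcription and replication (1 higher, median -0.46). The cytosolic ribosomal protein genes had a median of 0.29, with 33 higher and 15 lower. Myc was lower by 2.83 on the log2 scale, at 76.9, 81.6 and 114.5 CPM in Lat-/- against 599.3, 660.7 and 681.6 CPM in WT libraries. Of 8 mRNAs of the mitochondrial genome with any read, 6 were higher and 0 lower (median 1.69), and their summed level at 20 h was 18400 to 29020 CPM in Lat-/- and 8715 to 9422 CPM in WT libraries. Myeloid markers differed too, at 586.6 to 699.8 CPM in Lat-/- and 181.9 to 184.9 CPM in WT libraries at 20 h, where Ctss reached 634 CPM and Lyz2 was at no more than 0.0884 CPM. The CD8+ T cell and NK cell markers were at 70.2 to 89.3 CPM in Lat-/- and 21.9 to 24.6 CPM in WT libraries at 20 h, with 2 of 6 higher and 2 lower, from -4.56 to 6.33 on the log2 scale. At 0 h, 3 of these 6 markers (median -1.97) and 3 of the 8 myeloid markers (median -0.41) were lower in Lat-/- cells, and none was higher. The part of these genes in the result was not tested.

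Whether CD5 or CD6 changed the members was asked at each time. In Cd5-/-, Cd6-/- and Cd5-/-Cd6-/- cells 74 members had risen at 20 h and 1 had fallen, Mrpl23, in each genotype. The share of tested genes called was 16.8% higher and 21.3% lower for Cd5-/-, 16% and 20.8% for Cd6-/-, and 16.7% and 21.6% for the double knockout. The count of members that rose by more than 2-fold was 70 for Cd5-/- (12.5% of tested genes), 54 for Cd6-/- (11.4%) and 69 for the double knockout (12.3%). The median log2 fold change was 1.61, 1.33 and 1.61. Without both 0 h libraries with a mismatched label, 74 had risen and 1 had fallen in Cd5-/- cells, and 71 had risen and 0 had fallen in Cd6-/- cells, where the fall of Mrpl23 was no longer called.

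At 4 h 49 members had risen and 3 had fallen in Cd5-/- cells (13.2% and 15.2% of tested genes) and 46 and 3 in Cd5-/-Cd6-/- cells (12.6% and 13.7%). In Cd6-/- cells 34 had risen and 9 had fallen (12.5% and 14.7%). The 9 were Mrpl58, Mrpl34, Mrps16, Mrpl14, Mrps35, Mrpl48, Mrpl4, Mrpl22 and Mrps26, from -1.24 to -0.42, and all but Mrpl58 had risen by 20 h. Mrps16, a small-subunit protein with a bacterial homolog, was at 44.7, 37.4 and 80.5 CPM at 0 h, 29.4, 27.1 and 27.5 CPM at 4 h and 66.8, 89.3 and 96.2 CPM at 20 h. Mrpl14 was at 22, 20.8 and 47.8 CPM, then 15.3, 17.9 and 16.7 CPM, then 49.3, 56.8 and 70.5 CPM. Library 3 was the high one at 0 h for both genes, and the second 0 h value of each gene given here comes from the library labelled Cd6-/- that held Cd6 at 1350 CPM. Mrpl22, an exit-tunnel protein with a bacterial homolog, was at 13.3, 13.4 and 17.9 CPM at 0 h and 10.9, 9.69 and 10.6 CPM at 4 h before 22, 26.3 and 36.3 CPM at 20 h. Mrpl48, a mitochondria-specific large-subunit protein, was at 21.2, 15.6 and 28.4 CPM, then 15.9, 13.7 and 15.8 CPM, then 37.9, 37.9 and 51.4 CPM, with an overlap between 0 h and 4 h. In the other genes of this set the 4 h libraries lay below all 0 h libraries. The count of risen members in Cd6-/- cells was 22 without the libraries numbered 1 and 21 without those numbered 2. Fallen members numbered 4 without those numbered 3, and with library totals alone 24 had risen and 13 had fallen, or 64.9% in place of 79.1% risen. The 0 h library 3 of Cd6-/- cells stood above the other 0 h libraries of its group, at a mean of 5.28 log2 CPM over members against 4.80 and 4.72, and it also held the highest sums of myeloid (1144 CPM) and of erythroid and platelet markers (3742 CPM). Without both 0 h libraries with a mismatched label, 26 had risen and 10 had fallen in Cd6-/- cells, and each of the 9 named here stayed lower (log2 -1.15 for Mrps16 and -1.06 for Mrpl14). The difference between the 4 h responses of these genotypes and of WT cells was not tested. At 4 h itself, 0 members were called in Cd6-/- against WT cells, with a median log2 difference of -0.07.

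Set against WT directly, 0 members were called in either direction in any of the 3 genotypes at any time. The share of tested genes called in either direction was 0.0619% at 0 h, 0.0867% at 4 h and 0.0217% at 20 h for Cd5-/-, 0%, 0.0031% and 0.0186% for Cd6-/-, and 0.0279%, 0.0434% and 0.0465% for Cd5-/-Cd6-/- cells. The difference of the 20 h responses was called for 0 members too, against 0.0031%, 0.0031% and 0% of tested genes. At an unadjusted p under 0.05 there were 3 members in Cd6-/- cells at 0 h (Mrpl2, Mrpl52 and Mrps16), 1 in the difference of 20 h responses of Cd6-/- cells (Mrps34) and 0 in the other comparisons, and DESeq2 also called 0 in each. The 0 h comparisons and the differences of 20 h responses for Cd5-/- and Cd6-/- rest on groups that hold the libraries with a mismatched label. Without those 2 libraries, edgeR again called 0 members in each of these 4 comparisons. The counts at an unadjusted p under 0.05 were then 18 for Cd6-/- at 0 h and 7 for the difference of 20 h responses of Cd6-/- cells, and 0 in both comparisons for Cd5-/-. The smallest adjusted p of a member for Cd6-/- at 0 h was 0.48 in edgeR's test. That 0 h group then held only libraries 1 and 3, of which library 3 was high over members. The share of all tested genes at an unadjusted p under 0.05 is not given here, so these counts are not read as a result about the members.

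These knockout comparisons bounded the size of a difference. The 95% interval lay within a 2-fold change for 77, 77 and 76 of 77 members at 0 h, 4 h and 20 h for Cd5-/-, of 75, 76 and 77 for Cd6-/-, and of 76, 75 and 76 for the double knockout. The few intervals that reached beyond belonged to Mrpl23 and Mrps36, which had the fewest reads. For the 20 h response the interval lay within 2-fold for 75 members for Cd5-/-, 71 for Cd6-/- and 75 for the double knockout. The members beyond it were Mrpl23 and Mrps36 in each genotype, and also Mrpl14, Mrpl52, Mrps24 and Mrps34 for Cd6-/-. Without the libraries with a mismatched label, it lay within 2-fold for 76 members for Cd5-/- and 75 for Cd6-/- at 0 h, and for 74 and 67 in the 20 h response. Median differences at 20 h were 0.06 for Cd5-/-, -0.03 for Cd6-/- and 0.05 for the double knockout, beside a median SE of 0.17. At 0 h they were 0.004, 0.16 and -0.04 in the same order, and 73 of 77 members lay above 0 for Cd6-/-. In the difference of 20 h responses they were 0.05, -0.18 and 0.09, with 72 members below 0 for Cd6-/-. Both of these Cd6-/- medians rest on the 0 h group with a mismatched library.

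Levels of Mrps6 at 20 h overlapped in all 4 genotypes, at 114.2, 130.8 and 181.9 CPM for Cd5-/-, 115.5, 139.1 and 164.2 CPM for Cd6-/-, and 125.6, 131.3 and 168.7 CPM for the double knockout. Mrpl12 was at 333.5, 406.8 and 490.4 CPM, 286.7, 370 and 430.2 CPM, and 317.7, 405.3 and 530.2 CPM in the same order. In each genotype library 3 was the highest for both genes, and at 20 h it had the highest mean over members in all 4 genotypes (6.51 to 6.64 log2 CPM). Mrps34, a small-subunit protein specific to mitochondria, had the largest estimate of a different 20 h response in Cd6-/- cells, at -0.79 with an SE of 0.31. It was at 8.68, 8.24 and 15.2 CPM at 0 h and 14.3, 18.4 and 21.6 CPM at 20 h in Cd6-/- cells, against 9.11, 6.53 and 8.34 CPM and 21.1, 22.6 and 26.6 CPM in WT cells. The second 0 h value of the Cd6-/- group comes from the library that held Cd6 at 1350 CPM, and without both mismatched libraries the estimate was -0.91 with an SE of 0.31. The 0 h library 3 of Cd6-/- cells was the high one, and Mrps34 shares 37.0% of its exon bases with Nme3 on the same strand and 63.4% with Mapk8ip3 on the other.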

How the data were processed

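The authors made TruSeq stranded mRNA libraries, sequenced single reads of 50 bases (bcl2fastq 2.17.1.14, per the labels), mapped them with STAR on GRCm38 and assigned reads to genes with featureCounts. The deposited tables, 1 per experiment, hold raw counts per gene and other columns for gene position and length. The annotation release, strand setting and treatment of reads with several matches are not given in the sources used here. Members and gene lists were chosen with earlier results of these data known.

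All genes with at least 1 read in a table were tested with edgeR 4.0.16 in R 4.3.3 (TMM factors, quasi-likelihood test, 1 coefficient per group, Benjamini-Hochberg adjustment over 32290 or 27780 genes, calls at an adjusted p under 0.05), in scripts tested on simulated data. Log2 fold changes come from that fit, and mean log2 CPM values used a prior count of 2. The SE was computed as the absolute log2 fold change over the square root of the F statistic. The 95% intervals are ± 1.96 SE. CPM of Lat, Cd5 and Cd6 uses the total of counted reads. CPM of all other genes uses that total multiplied by the TMM factor, and RPKM divides this CPM by the deposited length. Alternatives were RLE factors, library totals, DESeq2 1.42.0, filterByExpr, a mean of 50 counts, a fold above 2, only the groups compared, a replicate block, and left-out libraries.

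Values of single libraries are given for a chosen set of members, each in some of the groups only. The set held the 5 highest and 5 lowest changes at 20 h. It also held the 3 highest and lowest at 4 h and in Lat-/- against WT cells at 20 h, and members called in opposite directions between responses. Values of Mrps34, Mrps36, Mrpl36, Mrpl52, Mrpl54 and the Mrps18 family were added after their values were seen. Same-numbered libraries deviated together, with every pair's correlation above 0.1, in some comparisons (the 4 h response of CD5/CD6 WT cells among them) and not in others. Lengths and identities of the Mrps18 proteins were not analysed here.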

Additional observations from a re-analysis of the deposited data

Results flagged for a closer look

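The response to stimulation differed between Lat-/- and WT cells by a test of the difference itself. The 20 h response was lower in Lat-/- cells for 63 of 77 members, against 12.8% of tested genes. The 4 h response was lower for 28 members and higher for 2, Mrpl34 and Mrpl14, against 7.58% and 7.42% of tested genes. Higher calls at 4 h were thus no more frequent among members than among all tested genes. Leaving out the libraries of 1 number at a time gave 9 to 39 lower and 0 to 4 higher members at 4 h, and DESeq2, filterByExpr and a fit of only the groups compared each left 1 higher. Groups held 3 libraries, so single libraries were not tested as outliers.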

How the results depend on the processing

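No value of a named member was called in opposite directions between the reported fit and an alternative run. The balance of risen and fallen counts could turn, as within Lat-/- cells at 4 h with library totals. Of 564 counts recomputed, 498 stayed within 1.5 times the reported count and 66 did not, and of 320 medians 307 stayed within the spread and 13 moved. Of 1603 values of named members, 1519 kept their direction and call, 45 became called and 39 lost the call.

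Requiring a fold above 2 left these counts of higher and lower members: 19 and 0 for WT at 4 h, 33 higher from 4 h to 20 h, 19 and 1 for Cd5-/- at 4 h, 15 and 2 for Cd6-/- at 4 h, and 16 and 0 for Cd5-/-Cd6-/- at 4 h in the CD5/CD6 experiment. In the LAT experiment it left 14 and 1 for WT at 4 h, 39 higher at 20 h and 13 higher from 4 h to 20 h, 0 and 0 within Lat-/- cells at 4 h and at 20 h, 0 and 11 for Lat-/- against WT at 4 h, and 0 and 10 for the difference of 4 h responses.

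Library totals without TMM factors mattered most at 4 h. They moved the median of members from 0.633 to 0.389 and the fallen count from 3 to 10 for WT in the CD5/CD6 experiment, the median from 0.635 to 0.418 and the fallen count to 6 for Cd5-/-, the median from 0.406 to 0.206 for Cd6-/-, and the median from 0.521 to 0.275 and the fallen count to 6 for Cd5-/-Cd6-/- cells. In the LAT experiment they moved the WT counts at 4 h from 46 and 4 to 24 and 10 with a median of 0.267, the WT median from 4 h to 20 h to 0.721, the Lat-/- counts at 4 h to 1 and 6, the risen count of Lat-/- cells at 20 h to 0, and the median difference of 4 h responses to -0.329. This scaling lowers all genes together: for WT at 4 h, the median of genes with a mean of at least 10 reads was -0.08 with TMM factors and -0.32 without in the CD5/CD6 experiment.

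DESeq2 and filterByExpr each left 1 member with a higher 4 h response in Lat-/- cells, and filterByExpr called 1 member higher in Lat-/- than in WT cells at 20 h. Members with a mean of 50 or more counts leave out Mrpl23, so 0 had fallen at 20 h in WT, Cd5-/-, Cd6-/- and Cd5-/-Cd6-/- cells and 0 from 4 h to 20 h in WT cells. Fits of only the groups compared, which hold fewer libraries, gave 0 fallen for Cd6-/- at 20 h and 5 at 4 h, 7 risen and 8 fallen for Lat-/- at 4 h and 7 fallen at 20 h, 1 higher for Lat-/- against WT at 20 h, and 1 higher for the difference of 4 h responses. Without both 0 h libraries with a mismatched label, 0 had fallen for Cd6-/- at 20 h.

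With the replicate block, which treats same-numbered libraries as a pairing, 7 members had fallen in WT cells at 4 h from the CD5/CD6 experiment in place of 3, and no other count moved by more than 1.5 times.

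Leaving out the libraries of 1 number at a time gave these ranges. Fallen members at 20 h were 0 to 1 in WT, Cd5-/- and Cd6-/- cells, and 1 to 2 from 4 h to 20 h in WT cells from the CD5/CD6 experiment. In Cd6-/- cells at 4 h, 21 to 50 had risen and 4 to 8 had fallen, with medians of 0.256 to 0.601. For WT in the LAT experiment, 19 to 51 had risen at 4 h with medians of 0.337 to 0.628, the median at 20 h was 0.912 to 1.224, and from 4 h to 20 h it was 0.493 to 0.677 with 0 to 1 fallen. Within Lat-/- cells, 0 to 3 had risen and 2 to 5 had fallen at 4 h, and 0 to 1 had risen and 0 to 10 had fallen at 20 h. For Lat-/- against WT, 24 to 46 were lower at 4 h and 0 to 1 higher at 20 h, and for the difference of 4 h responses 9 to 39 were lower and 0 to 4 higher, with medians of -0.744 to -0.32. Except where a sentence above names it, the cause was not tested. Depth limits Mrpl23, Mrps36 and Mrps10 most, whose means were the lowest.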

Other observations

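Start sites of members often lay close to the start of another gene. For 18 of 77 members (23.4%) a gene on the opposite strand started within 1000 bases before the start, against 1383 of 12376 genes (11.2%) with a mean of at least 10 reads, given as a description with no test. Among the 18 neighbours, 7 rose and 5 fell at 20 h in WT cells from the CD5/CD6 experiment, against 16.9% and 21.1% of all tested genes. Ska3, which acts at the kinetochore of dividing cells and starts 49 bases from Mrpl57, rose by 4.55 on the log2 scale, and Ncapd2, a condensin subunit 100 bases from Mrpl51, rose by 1.65. Psma2, a proteasome subunit 75 bases from Mrpl32, rose by 1.54, and Sars2, a mitochondrial tRNA synthetase 172 bases from Mrps12, rose by 1.13. Neighbours that fell included Pnpla7, 935 bases from Mrpl41 (by 1.77), and Klc4, 207 bases from Mrpl2 (by 1.55), while the members beside them rose. So neighbours of members that rose went either way.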
